A study of Mus musculus with 4 samples.

Results

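The genes described here are 38 markers of the non-glial cells that line and feed the brain, namely fibroblasts of the meninges, mural cells (pericytes and smooth muscle cells of vessel walls) and endothelial cells. They were given as a list of symbols and matched exactly to the gene names of the deposited table, which lists 25393 genes. 35 of the 38 were found. The expression of Tie1, Cldn5 and Emcn, which are endothelial markers, was not analysed here. The 35 genes comprise 11 of fibroblast matrix, 2 of fibroblast surface and calcium binding (Thy1 and S100a6), 5 mesenchymal transcription factors, 4 mural receptor, signalling and adhesion genes, 6 contractile genes of smooth muscle and 7 endothelial genes.

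Cultures of primary astrocytes are made from dissociated neonatal brain, so cells of the meninges and of small vessels can be carried into the flask with the glia. Shaking is used to detach loosely attached cells such as microglia and oligodendrocyte precursors, whereas fibroblasts and mural cells spread flat on plastic and attach firmly. Fibroblasts secrete the fibres and small proteoglycans of connective tissue, mural cells wrap vessels and contract through smooth muscle actin and myosin, and endothelial cells form the tubes and the blood-brain barrier. Few of these genes are fully restricted to such cells. Fn1, Fstl1 and S100a6 are also made by cultured astrocytes, Thy1 is a neuronal surface protein as well, and Acta2 is switched on in many adherent cells in culture. A level of one of these genes is therefore not a count of cells.

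RNA-seq was made from 2 libraries labelled wild type (WT) and 2 labelled tet1-/- (Tet1 KO), all of strain C57BL/6, untreated, from cortex and hippocampus of mice at postnatal day 1. Per the labels, each isolation pooled 2 mice, cells grew for about 7 days in a flask coated with poly-D-lysine, were shaken at 260 rpm once they nearly covered it, and were collected 24 hours later. Since the paper's Tet1 KO is constitutive, by the label any cell type in the flask would carry the deletion, fibroblasts and vessel cells included. No source says whether replicates differ in more than the isolation, and p-values measure only the spread between these libraries.

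The libraries held 18749610 and 22673555 reads on genes in WT, and 20702980 and 22403163 in those labelled KO. The deposited values are called normalized counts here, that is reads scaled by a size factor for each library. In that unit 3 reads, the floor used below, equal 2.70 to 3.21. FPKM, the scale on which levels of different genes are compared, was computed from the recovered reads and the gene lengths. Tet1 itself stood at 266 and 121 normalized counts for WT against 173 and 463 for the libraries labelled KO. It was not lower in the latter, although counts for a whole gene cannot tell a transcript that lacks the deleted part from an intact one. Every direction below rests on the label. Differences were tested with limma on log2(normalized count + 1), a scale that understates changes of low genes, over 22094 genes. With 2 libraries a group, the smallest two-sided p of an exact permutation test on 1 gene is 0.33.

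Genes listed for each of the 3 cell types had reads in every culture, at very unequal levels. For endothelial cells this rests mostly on Slco1a4, since Pecam1 had 2 to 8 reads in a library and Cdh5 had 0 to 24. Which cells made the Slco1a4 RNA was not tested. By the mean FPKM of the 4 libraries, 4 of the 35 genes (Acta2, Myl9, Fstl1 and Fn1) lay at 100 or above, 6 lay between 10 and 100, 8 between 1 and 10, and 17 below 1. Together they took 0.197% and 0.263% of reads for WT, against 0.441% and 0.804% for those labelled KO. Fn1 and Acta2 carried much of this rise, with 1595 and 1856 reads in WT replicate 1 and 7523 and 9682 in WT replicate 2. They had 19743 and 20789 reads in replicate 1 labelled KO, and 78688 and 55679 in replicate 2 labelled KO. By the fitted value, 18 of the 35 genes were higher in the libraries labelled KO and 17 lower. The number of genes read at low level was alike, since 19 and 18 of the 35 were under 1 FPKM for WT against 17 and 19 for those labelled KO. At 3 reads or fewer were 8 and 2 genes for WT against 6 and 3 for those labelled KO. In bulk RNA, fewer cells of a type and less RNA per cell cannot be told apart.

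**Figure D1:**
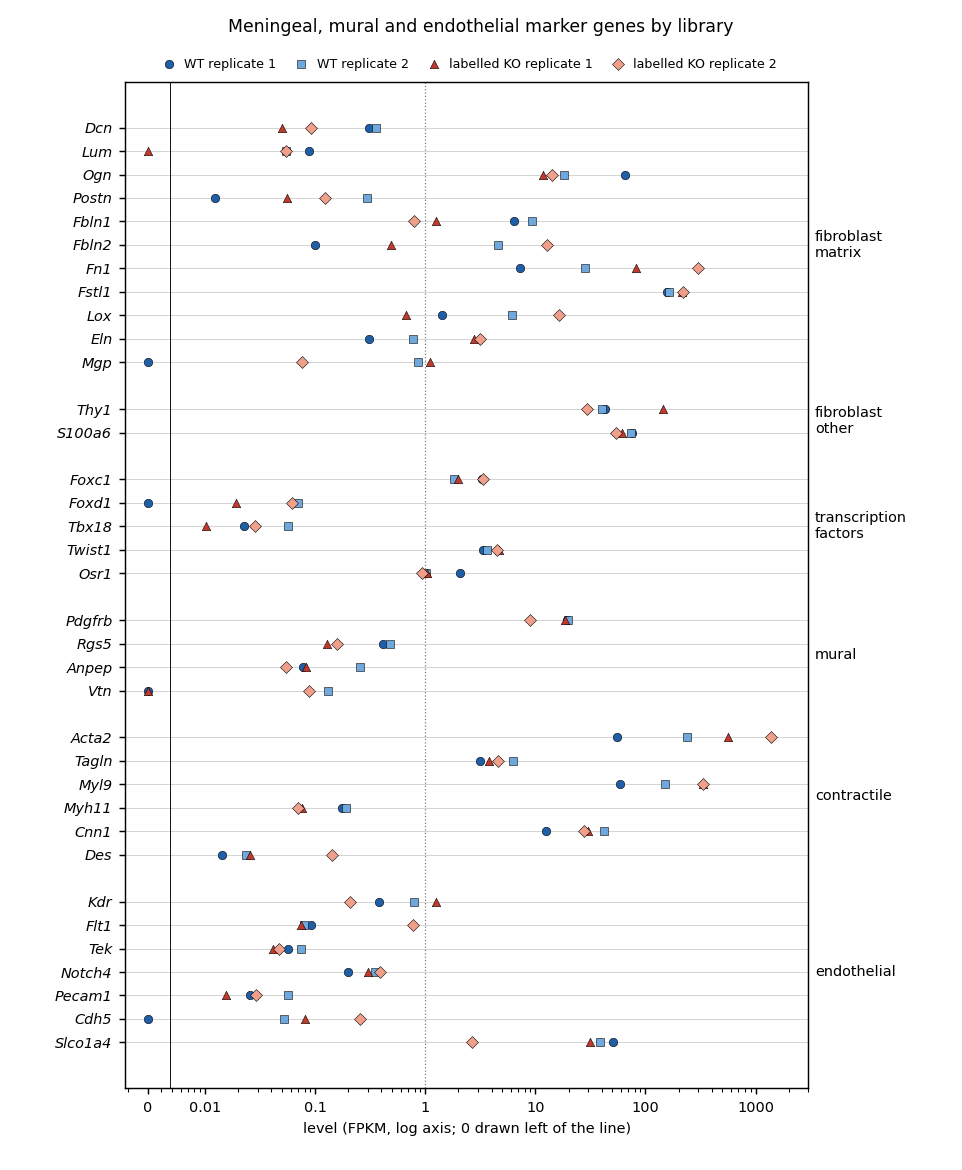
Level of each of the 35 marker genes in each library, in FPKM on a log axis, with genes grouped by class and values of 0 drawn left of the vertical line. The dotted line marks 1 FPKM, and 17 of the genes have a mean below it, while Acta2 reaches 1395 FPKM in the second library labelled KO.

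No marker gene passed limma with Benjamini-Hochberg adjustment over all genes in either direction (0 of 35, where the share of all genes called was 0%). At an unadjusted p under 0.05, 4 of the 35 were higher in the libraries labelled KO, namely Fn1, Eln, Acta2 and Myl9. That is 11.4% of them, beside 4.54% of all 22094 genes. 3 were lower, namely Dcn, Fbln1 and Rgs5, or 8.57% beside 9.18% of all genes. edgeR called 0 of the 35 after adjustment, and at an unadjusted p it gave the same 4 higher genes and, beside Dcn, Fbln1 and Rgs5, also Ogn. The share of all genes that edgeR called at that p is not given here, so these genes are not set against a background. DESeq2 with Benjamini-Hochberg adjustment called Fn1, Eln and Acta2 higher (3 of the 28 genes to which it gave an adjusted p, where 1.64% of all genes were called) and Fbln1 lower (1 of 28, where 4.62% were).

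The order of the single libraries gave no more than the background. In 8 genes both libraries labelled KO lay above both WT libraries, 22.9% of the 35 where 22.5% of all genes did so (Fn1, Fstl1, Eln, Twist1, Acta2, Myl9, Des and Cdh5). In 9 genes both lay below, 25.7% where 25.4% of all genes did (Dcn, Lum, Ogn, Fbln1, S100a6, Rgs5, Myh11, Tek and Slco1a4). The median log2 fold change of the 35 was 0.13, with 18 higher and 17 lower, and that of all genes tested was -0.07. By class, the medians were 0.32 for fibroblast matrix, 0.19 for the surface and calcium binding pair, 0.13 for transcription factors, -0.73 for the mural receptor class, 0.86 for contractile genes and -0.05 for endothelial genes. Leaving out 1 library moved the matrix median between -0.86 (without WT replicate 1) and 1.29 (without WT replicate 2), and the contractile median between 0.30 and 1.43 with the same libraries. The endothelial median turned to between 0.32 and 0.36 with quantile normalization, edgeR or DESeq2.

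**Figure D2:**
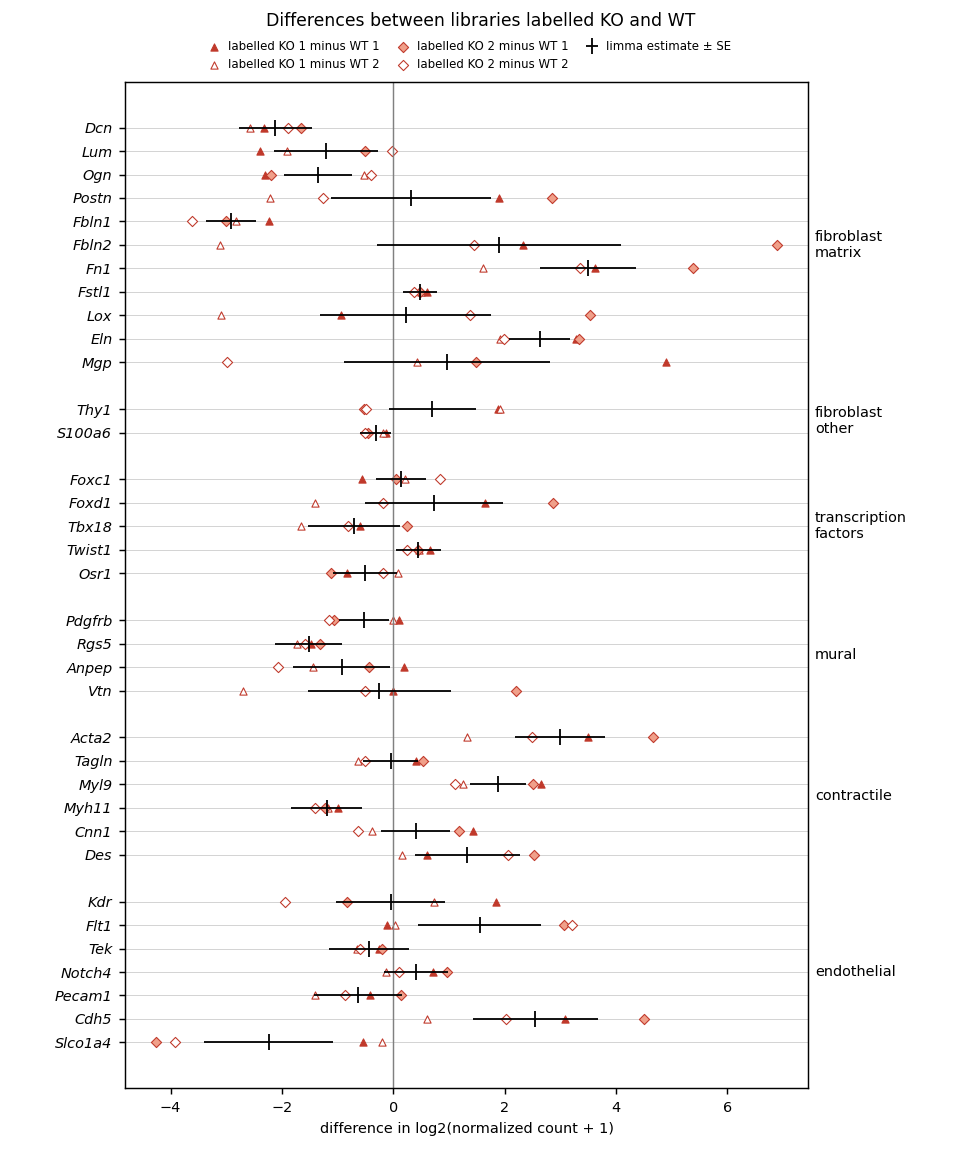
Differences in log2(normalized count + 1) between each library labelled KO and each WT library (4 points per gene) with the limma estimate and its standard error (black). Fbln1, Dcn and Rgs5 have all 4 points left of 0 and Fn1, Eln, Acta2 and Myl9 have all 4 right of it, while for Fbln2, Lox, Mgp and Kdr the points lie on both sides.

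Markers of other cell types were read beside these genes. All 12 microglial markers of a list were lower in the libraries labelled KO by the fitted value, 10 of them at an unadjusted p under 0.05 in limma (where 9.18% of all genes were called lower) and 9 by DESeq2 with adjustment (where 4.62% were). Their summed level was 70.1 and 113 FPKM in WT and 25.5 and 12.6 FPKM in the libraries labelled KO, with no overlap. The defining marker P2ry12 had 6 and 5 reads in WT and 0 and 1 reads in the libraries labelled KO, and Tmem119, another one, had 2 and 42 reads against 8 and 2 reads. The summed level of 10 astrocyte markers was 1901 and 1773 FPKM in WT against 3028 and 477 FPKM in the libraries labelled KO, with the WT libraries between those labelled KO. Gfap, which encodes the astrocyte filament protein, had 1871 FPKM in replicate 1 labelled KO and 117 FPKM in replicate 2, and it gave 61.8% of the sum in the former. By the fitted value 8 of the 10 astrocyte markers were lower in the libraries labelled KO (median log2 fold change -0.73). In 5 of the 10 both libraries labelled KO lay below both WT libraries (Aldh1l1, Slc1a2, Slc1a3, Aqp4 and Sox9), where 25.4% of all genes did. Of these, Slc1a2 and Sox9 were at an unadjusted p under 0.05 in limma, where 9.18% of all genes were called lower. Gja1 lay above in both, where 22.5% of all genes did. It had 17.3 and 24.5 FPKM in WT and 32.4 and 30.6 FPKM in the libraries labelled KO. The sums of 8 oligodendrocyte lineage markers (81.7 to 145 FPKM) and of 8 neuron markers (27.2 to 66.3 FPKM) overlapped between the labels. Of the oligodendrocyte lineage markers, 6 of 8 were lower by the fitted value (median -1.02, log2 scale). DESeq2 gave an adjusted p to 6 of them and called Cspg4 lower (adjusted p = 0.0326), or 16.7% where 4.62% of all genes were. Cspg4 is also counted among the further mural genes below, and Pdgfra, of the same list, among the further fibroblast genes. Of the neuron markers, 5 of 7 tested were higher by the fitted value (median 1.66, that of Syt1). Syt1 had 15 and 16 reads in WT and 22 and 119 reads in the libraries labelled KO. Dcx had 1 and 0 reads in WT against 7 and 5, and Rbfox3 had 1 and 1 against 52 and 2. The most abundant, Gap43, Stmn2 and Map2, overlapped between the labels, with log2 fold changes of -0.86, 0.53 and -0.01 (limma). DESeq2 gave an adjusted p to 6 of the neuron markers and called Tubb3 higher (adjusted p = 0.0424), or 16.7% where 1.64% of all genes were. The part that these differences have in the values of the marker genes below was not tested.

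The fibroblast matrix genes split in direction. Fibronectin 1 (Fn1, ENSMUSG00000026193, chr1:71585520-71653200 on the minus strand of GRCm38), the large adhesive glycoprotein of the matrix, had 7.28 and 28.4 FPKM in WT and 81.6 and 301 FPKM in the libraries labelled KO. The means were 17.8 ± 14.9 and 191 ± 155 FPKM (SD, n = 2 each). The groups did not overlap, and the lower one labelled KO was 2.87-fold above the higher WT one. The log2 fold change was 3.50 (SE 0.86, adjusted p = 0.227 from limma, 0.274 from edgeR and 0.00115 from DESeq2). Elastin (Eln, ENSMUSG00000029675, chr5:134702593-134747323, minus strand), the protein of elastic fibres, had 0.310 and 0.773 FPKM in WT and 2.77 and 3.16 FPKM in the libraries labelled KO, and this second pair lay close together. Its log2 fold change was 2.63 (SE 0.55, adjusted p = 0.189 from limma and 0.00219 from DESeq2). Follistatin-like 1 (Fstl1), a secreted glycoprotein of mesenchyme, was the most abundant matrix gene in 3 of the 4 libraries, at 157 and 163 FPKM in WT and 215 and 217 FPKM in the libraries labelled KO. The groups did not overlap, but the log2 fold change was 0.48 (SE 0.31, adjusted p = 0.545 from limma). Of the 50-base windows of its transcripts, 2.68% also occur in transcripts of other genes.

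Fibulin 1 (Fbln1, ENSMUSG00000006369, chr15:85205949-85286535, plus strand), a glycoprotein of basement membranes and elastic fibres, went the other way. It had 6.46 and 9.41 FPKM in WT and 1.24 and 0.787 FPKM in the libraries labelled KO. The means were 7.93 ± 2.09 FPKM (SD, n = 2) and 1.01 ± 0.319 FPKM (SD, n = 2), with no overlap. The log2 fold change in limma was -2.92 (SE 0.45, unadjusted p = 0.00101, adjusted p = 0.139, and 1.2e-05 adjusted in DESeq2). Decorin (Dcn), a small proteoglycan that binds collagen and is among the most used fibroblast markers, was sparse throughout, with 34 and 47 reads in WT and 6 and 12 reads in the libraries labelled KO. These were 0.311 and 0.355 FPKM against 0.0496 and 0.0918 FPKM, with a log2 fold change of -2.12 (SE 0.66, adjusted p = 0.292 from limma and 0.161 from DESeq2). Lumican (Lum), a proteoglycan of the same family, had 4 and 3 reads in WT and 0 and 3 reads in the libraries labelled KO, which is at the floor in 3 of the 4. Osteoglycin (Ogn), also of that family, was far more abundant than both in every library, at 65.1 and 18.1 FPKM in WT and 11.8 and 14.1 FPKM in the libraries labelled KO. The first WT library stood above the other 3, and the log2 fold change was -1.36 (SE 0.61, adjusted p = 0.411 from limma), or -0.46 without that library and -2.25 without WT replicate 2. Ogn lies within Cenpp on the opposite strand, and the source of its reads was not separated from that gene.

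Other matrix genes differed more between libraries of 1 label than between labels. Fibulin 2 (Fbln2) had 0.10 and 4.53 FPKM in WT and 0.485 and 12.8 FPKM in the libraries labelled KO, low in the first replicate and high in the second of either label. Lysyl oxidase (Lox), which cross-links collagen and elastin, had 1.42 and 6.07 FPKM in WT and 0.663 and 16.3 FPKM in the libraries labelled KO, in the same order. Periostin (Postn), a matrix protein of fibroblasts and bone, had 2 and 58 reads in WT and 10 and 24 reads in the libraries labelled KO. Matrix Gla protein (Mgp), an inhibitor of calcification made by vessel wall cells, had 0 and 23 reads in WT and 27 and 2 reads in the libraries labelled KO. For these 4 genes the groups overlapped and the log2 fold changes of 0.22 to 1.89 had standard errors of 1.44 to 2.19 in limma. The summed level of the 11 matrix genes was 238 and 232 FPKM in WT and 314 and 565 FPKM in the libraries labelled KO. Fstl1 gave 65.9% to 70.3% of that sum in 3 libraries, and Fn1 gave 53.2% of it in the second library labelled KO.

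Thy1 and S100a6 were read at high levels. Thy1, a surface glycoprotein of fibroblasts and neurons, had 42.8 and 40.3 FPKM in WT and 143 and 29.6 FPKM in the libraries labelled KO. Only the first library labelled KO stood apart, and the log2 fold change of 0.70 (SE 0.78, limma) became -0.50 without it. S100a6, a small calcium-binding protein, had 74.7 and 73.7 FPKM in WT and 61.0 and 53.9 FPKM in the libraries labelled KO. Its groups did not overlap, with a log2 fold change of -0.32 (SE 0.28, adjusted p = 0.646 from limma).

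The transcription factors were low, and their summed level varied little. Twist1, a basic helix-loop-helix factor of mesenchyme, had 3.31 and 3.63 FPKM in WT and 4.72 and 4.47 FPKM in the libraries labelled KO, with a log2 fold change of 0.45 (SE 0.40, adjusted p = 0.650 from limma). Foxc1, a forkhead factor needed for the forming meninges, had 3.25 and 1.81 FPKM in WT and 1.98 and 3.33 FPKM in the libraries labelled KO, and the groups overlapped. Osr1, a zinc finger factor of mesenchymal progenitors, had 2.07 and 1.02 FPKM in WT and 1.03 and 0.929 FPKM in the libraries labelled KO, also with overlap. Foxd1 and Tbx18, factors of mural cells and their precursors, had at most 8 reads in any library and reached 0 reads in 1 WT library for Foxd1. The summed level of the class ranged only from 6.59 to 8.82 FPKM over the 4 libraries and overlapped between the labels. The 5 factors thus varied 1.34-fold in sum while the contractile class varied 13.5-fold.

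In the mural receptor class, all 4 fitted differences were negative, and the summed level was 19.6 and 20.5 FPKM in WT and 18.7 and 9.33 FPKM in the libraries labelled KO. Pdgfrb made 95.8% to 98.9% of it. Pdgfrb, the platelet-derived growth factor receptor of pericytes and fibroblasts, had 19.2 and 19.6 FPKM in WT and 18.5 and 9.03 FPKM in the libraries labelled KO. 3 libraries were alike and the second one labelled KO was lower, so that the log2 fold change of -0.53 (SE 0.45, adjusted p = 0.630 from limma) was 0.05 without it. Rgs5, a regulator of G protein signalling and a pericyte marker, had 35 and 49 reads in WT and 12 and 16 reads in the libraries labelled KO. In FPKM these were 0.411 and 0.475 against 0.128 and 0.157, with a log2 fold change of -1.52 (SE 0.60, unadjusted p = 0.0492, adjusted p = 0.363 from limma). It was at an unadjusted p under 0.05 in 7 of the 17 settings tried, and in none that left out a library. Anpep, an aminopeptidase of pericytes and myeloid cells, had 6 and 24 reads in WT and 7 and 5 reads in the libraries labelled KO. Vitronectin (Vtn), an adhesive plasma protein that pericytes also make, had 0 and 6 reads in WT and 0 and 4 reads in the libraries labelled KO. Pdgfrb was thus 41.3-fold or more above any other gene of the class in FPKM within each library, and Rgs5, Anpep and Vtn were all below 1 FPKM.

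The contractile genes held the most abundant transcripts of the list and also some of the rarest. Many genes of this class carry the CArG box, the binding motif of serum response factor, before their start. The motif was searched in the 250 bases before the RefSeq start (GRCm38.p6) as a CC, 6 bases of A or T, and a GG, which reads the same on both strands. A looser form allowing 1 G or C among the 6 was added after the strict search. Sequences are shown for Acta2, Myl9 and Cnn1, the 3 most abundant genes of the class, 5′ to 3′ on the gene's strand, with boxes of either form in capitals. For Myl9 (plus strand, chr2:156775214-156775419) and Cnn1 (plus strand, chr9:22099003-22099215) the run ends where the first GENCODE M21 transcript begins. For Acta2 (minus strand), over which GENCODE M21 draws a first exon further upstream, each box is shown with 10 bases on either side (chr19:34255438-34255467 and chr19:34255388-34255417).
Myl9: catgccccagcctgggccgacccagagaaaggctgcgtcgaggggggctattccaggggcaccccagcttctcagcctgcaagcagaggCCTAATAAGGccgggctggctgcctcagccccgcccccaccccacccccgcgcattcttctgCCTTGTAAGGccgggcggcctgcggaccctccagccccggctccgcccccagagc
Cnn1: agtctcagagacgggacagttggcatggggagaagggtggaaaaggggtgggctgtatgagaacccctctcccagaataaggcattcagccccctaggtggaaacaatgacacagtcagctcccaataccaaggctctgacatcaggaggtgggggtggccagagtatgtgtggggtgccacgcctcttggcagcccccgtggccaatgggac
Acta2, box at 84 bases: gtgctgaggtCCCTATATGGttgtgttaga
Acta2, box at 34 bases: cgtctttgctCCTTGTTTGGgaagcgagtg

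Promoters were given for 25 of the 38 genes, 4 of them contractile (Acta2, Myl9, Cnn1 and Des). The strict box was found in 1 of the 25, in Myl9 at 161 bases before the start, where 1.62% of the 27025 genes with a promoter held it. The looser form was found in 6 of the 25 (24.0%, where 9.78% of those genes did), at 161 and 99 bases in Myl9, at 84 and 34 bases in Acta2, and once each in Kdr, Fbln2, Slco1a4 and Tbx18. No box of either form lay in the Cnn1 or Des windows, which says only that these letters are not in them. A match is a description of the sequence and not of binding.

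Smooth muscle actin (Acta2, ENSMUSG00000035783, chr19:34241090-34255336, minus strand) had 55.6 and 240 FPKM in WT and 564 and 1395 FPKM in the libraries labelled KO. The means were 148 ± 130 and 980 ± 588 FPKM (SD, n = 2 each). It was the highest of the 35 genes in 3 of the 4 libraries, and the 4 values spanned a 25.1-fold range with no overlap between the labels. The log2 fold change was 2.99 (SE 0.81, adjusted p = 0.252 from limma, 0.315 from edgeR and 0.0107 from DESeq2). Myosin light chain 9 (Myl9, ENSMUSG00000067818, chr2:156775420-156781658, plus strand), the regulatory light chain of smooth muscle and non-muscle myosin, had 58.8 and 149 FPKM in WT and 335 and 331 FPKM in the libraries labelled KO. The pair labelled KO differed by little and lay above both WT libraries, with a log2 fold change of 1.88 (SE 0.51, adjusted p = 0.252 from limma and 0.0547 from DESeq2). These were the only 2 contractile genes at an unadjusted p under 0.05.

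Calponin 1 (Cnn1), an actin-binding protein of smooth muscle, had 12.5 and 41.9 FPKM in WT and 30.2 and 27.9 FPKM in the libraries labelled KO. The 2 WT libraries spanned those labelled KO, and the log2 fold change was 0.40 (SE 0.62, limma). Transgelin (Tagln), another actin-binding protein of smooth muscle, had 3.17 and 6.30 FPKM in WT and 3.79 and 4.56 FPKM in the libraries labelled KO, again with the WT libraries outside. Its log2 fold change was -0.05 (SE 0.49, limma), and it overlaps the coding gene Pcsk7 on the opposite strand, from which its reads were not separated. Smooth muscle myosin heavy chain (Myh11), the marker of mature smooth muscle, had 25 and 33 reads in WT and 12 and 12 reads in the libraries labelled KO, or 0.175 and 0.192 FPKM against 0.0763 and 0.0705 FPKM. Both libraries labelled KO were lower, with a log2 fold change of -1.20 (SE 0.63, adjusted p = 0.463 from limma). Desmin (Des), the intermediate filament of muscle, had 1 and 2 reads in WT and 2 and 12 reads in the libraries labelled KO. The summed level of the class was 130 and 438 FPKM in WT and 933 and 1759 FPKM in the libraries labelled KO, of which Acta2 gave 60.4% and 79.3% in the latter.

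The endothelial genes other than Slco1a4 were at or below 1.24 FPKM in every library. Slco1a4, an organic anion transporter of the blood-brain barrier, had 51.1 and 38.9 FPKM in WT and 31.5 and 2.64 FPKM in the libraries labelled KO. The second library labelled KO was far below the other 3, and the log2 fold change of -2.24 (SE 1.16, adjusted p = 0.459 from limma) was -0.38 without it. Slco1a4 alone made 94.7% to 98.6% of the summed endothelial level in 3 libraries and 60.8% in the second one labelled KO. Of the 50-base windows of its transcripts, 1.61% also occur in other genes, Slco1a5 among them.

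The defining endothelial markers were near 0. Pecam1, the junction protein CD31, had 3 and 8 reads in WT and 2 and 4 reads in the libraries labelled KO. Cdh5, the cadherin of endothelial junctions, had 0 and 5 reads in WT and 7 and 24 reads in the libraries labelled KO, and Tek, the angiopoietin receptor, had 4 to 8 reads in each library. Cdh5 thus did not overlap between the labels, with a fitted log2 difference of 2.55 (SE 1.12, adjusted p = 0.402 from limma) that leans on the added count of 1. Kdr, the main receptor of vascular endothelial growth factor, had 0.378 and 0.791 FPKM in WT and 1.24 and 0.208 FPKM in the libraries labelled KO. Flt1, the other receptor of that factor, had 0.0908 and 0.0784 FPKM in WT and 0.0751 and 0.780 FPKM in the libraries labelled KO. Only the second library labelled KO was high for Flt1, which had 236 reads there and 21 to 24 reads in each of the others, and the same library was the lowest for Kdr. Notch4, an endothelial Notch receptor, had 0.198 and 0.350 FPKM in WT and 0.300 and 0.388 FPKM in the libraries labelled KO, with overlap.

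The marker genes were variable between cultures of the same label. Among the 21 of the 35 with a mean of at least 50 normalized counts, 10 (47.6%) differed over 2-fold between the 2 WT libraries, where 10.7% of all 12868 such genes did. Between the 2 libraries labelled KO, 9 of the 21 (42.9%) differed over 2-fold, where 28.6% of all did. In WT, replicate 2 had 47.0 times the normalized count of replicate 1 for Fbln2, 4.50 times for Acta2, 4.46 times for Lox, 4.07 times for Fn1 and 3.50 times for Cnn1. Ogn went the other way. Between the libraries labelled KO, replicate 2 had 23.9 times the count of replicate 1 for Fbln2, 22.4 times for Lox, 9.46 times for Flt1 and 3.36 times for Fn1, while Slco1a4, Kdr and Thy1 were lower in it. No pairing across labels is given for the replicate numbers, and whether same-numbered libraries share more than the number is not known.

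**Figure D3:**
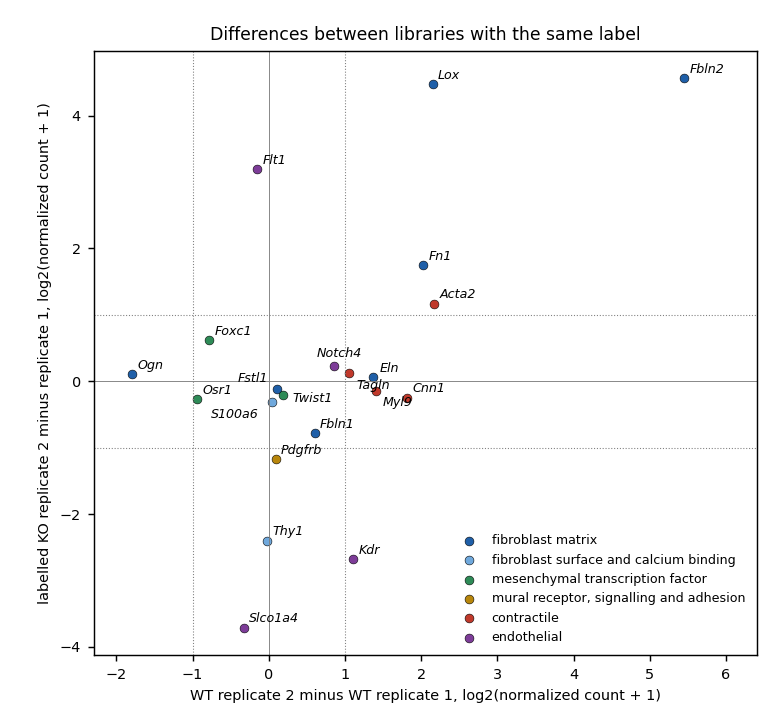
Difference between the 2 WT libraries (x axis) and between the 2 libraries labelled KO (y axis) in log2(normalized count + 1), for the 21 marker genes with a mean of at least 50 normalized counts, coloured by class. Dotted lines mark 2-fold, 10 genes lie outside them on the x axis and 9 on the y axis, and Fstl1, Twist1 and S100a6 lie near the centre.

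Calls at an unadjusted p depended on single libraries. Without WT replicate 1, only Eln remained higher and only Fbln1 remained lower at an unadjusted p under 0.05 in limma, where 4 and 3 genes stood with all libraries. Without replicate 2 labelled KO, the 1 higher gene was Thy1, and Dcn, Fbln1 and Lum were lower. Fbln1 was the only one of the 35 genes at an unadjusted p under 0.05 in all 17 settings tried, and its log2 fold change stayed between -3.31 and -2.53 when any 1 library was left out. Over the same removals that of Fn1 ran from 2.48 to 4.51, that of Eln from 1.95 to 3.31, that of Acta2 from 1.91 to 4.08 and that of Myl9 from 1.18 to 2.58. The lowest value of Acta2 and of Myl9 was that without WT replicate 1.

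Further genes of the same cell types, taken from lists outside the 38, were read in the same way. Of 15 further fibroblast genes, 5 were higher at an unadjusted p under 0.05 in limma (33.3%, beside 4.54% of all genes) and 0 were lower, beside 9.18% of all genes. The most abundant was Igfbp2, a binding protein of insulin-like growth factors that is also made by glia, with 567 and 606 FPKM in WT and 3474 and 3075 FPKM in the libraries labelled KO. DESeq2 gave an adjusted p to 13 of the 15 and called only Igfbp2, as higher (7.69%, where 1.64% of all genes were). Serpinf1, which encodes a secreted serpin, had 127 and 97.5 FPKM in WT and 471 and 187 FPKM in the libraries labelled KO, and was among the 5. Islr, a secreted protein of mesenchymal cells, had 238 and 150 FPKM in WT and 115 and 10.8 FPKM in the libraries labelled KO, lower in both, with an adjusted p of 0.432 from limma. The fibrillar collagen gene Col1a2 was also among the 5, whereas Col1a1 and Col3a1 were not, and Col6a3 was at 0 in WT replicate 1. Of the 5, Mfap5 had 4 and 12 reads in WT and 51 and 52 reads in the libraries labelled KO. Dpt, another of the 5, had 0 and 0 reads in WT against 4 and 3 reads, near the floor. In edgeR, Col1a2 and Dpt were at an unadjusted p of 0.0592 and 0.0591. Of 14 further mural genes tested, 3 were higher (Mcam, Smtn and Tpm1, or 21.4% beside 4.54% of all genes) and 2 lower (Cspg4 and Sncg, or 14.3% beside 9.18%). Mcam, an adhesion molecule of vessel walls, had 8.15 and 12.3 FPKM in WT and 32.2 and 52.0 FPKM in the libraries labelled KO. DESeq2 gave an adjusted p to 11 of the mural genes. It called Mcam higher (9.09%, where 1.64% of all genes were) and Cspg4 lower (9.09%, where 4.62% were). Tropomyosin 1 (Tpm1), an actin-binding protein of muscle and other cells, had 48.1 and 83.7 FPKM in WT and 115 and 183 FPKM in the libraries labelled KO.

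Of 14 further endothelial genes tested, 2 were higher (Cd34 and Mfsd2a, or 14.3% beside 4.54% of all genes) and 2 lower (Egfl7 and Ocln, or 14.3% beside 9.18%) at an unadjusted p under 0.05 in limma. Of this list, 10 genes were given an adjusted p by DESeq2. Egfl7 and Ocln were called lower by it (adjusted p = 0.0220 and 0.0415), or 2 of 10, where 4.62% of all genes were. It called 0 of 10 higher, where 1.64% of all genes were, with Cd34 and Mfsd2a at adjusted p = 0.252 and 0.296. Mfsd2a, a lipid transporter of the blood-brain barrier that other cells also use, made 54.1% to 88.1% of the summed level of that list. It had 16.9 and 37.9 FPKM in WT and 45.0 and 77.9 FPKM in the libraries labelled KO, so the sum of this list was higher in them (57.8 and 88.5 FPKM against 31.3 and 53.1 FPKM in WT) while that of the 7 endothelial genes above was lower (33.3 and 4.35 FPKM against 51.9 and 40.3 FPKM). In both lists 1 abundant gene gave most of the sum.

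**Figure D4:**
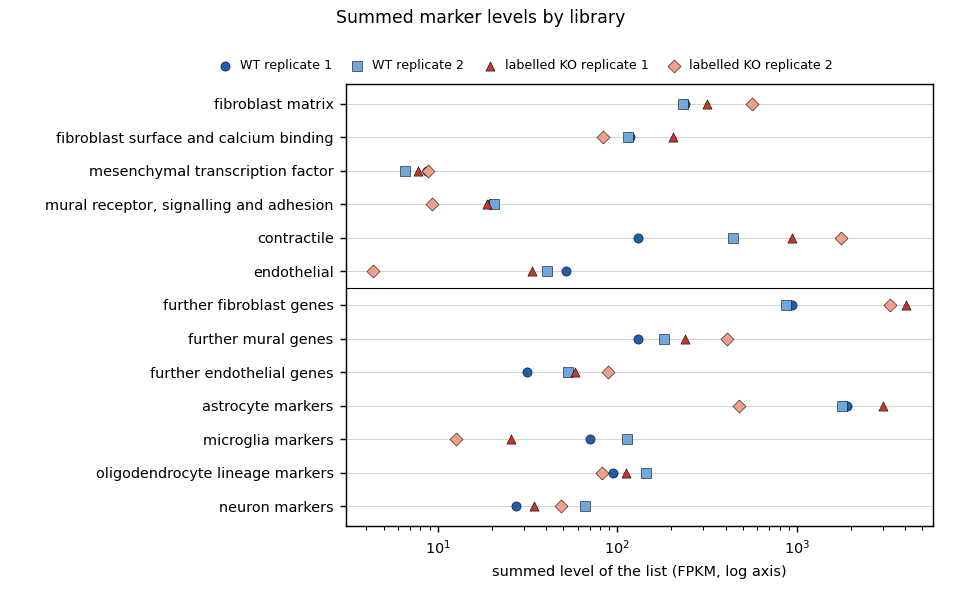
Summed FPKM (log axis) of each marker class (above the line) and of further marker lists (below it) in the 4 libraries. The contractile sum runs from 130 to 1759 FPKM and is higher in both libraries labelled KO, the microglial sum runs from 113 down to 12.6 FPKM and is lower in both, and the sum of the transcription factors stays between 6.59 and 8.82 FPKM.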

How the data were processed

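Astrocyte cultures gave 4 RNA-seq libraries, 2 for each genotype label, grouped and numbered by their sample titles. The authors filtered paired-end reads and aligned them to mm10, and the aligner, counter and annotation are not given in the sources used here. The deposited signal is 1 value per gene and library, named FPKM by the authors but found to be a read count divided by a size factor (0.937 and 1.09 in WT, 0.934 and 1.11 in the libraries labelled KO). All values (100%) were whole multiples of 1 read within 0.01, so reads were recovered. The authors' own fold changes and p-values, their means per group and their remaining columns were not used, apart from gene names, lengths and positions.

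FPKM used the recovered reads, the deposited gene lengths and the reads on genes. Limma 3.58.1 (R 4.3.3, lmFit and eBayes with trend) was run on log2(normalized count + 1) for the 22094 genes whose mean reached 1, without a block and with p-values adjusted by Benjamini-Hochberg. This test had been planned for FPKM. edgeR 4.0.16 and DESeq2 1.42.0 ran on the recovered reads. The limma, edgeR and DESeq2 fits were run on simulated counts with known changes and the same spread for every gene and library. Read recovery, FPKM and the promoter search were not part of that run. The prior of limma was worth 3.4 degrees of freedom, and edgeR put the common biological variation at 0.47. Libraries of 1 label differed by more than sampling noise, with a median chi-square per gene of 8.04 in WT and 27.0 in the libraries labelled KO where noise gives 0.45. Each was counted as a replicate.

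Overlapping genes were taken from GENCODE M21 (GRCm38), and promoters from RefSeq (GRCm38.p6). Tables were made with pandas 2.3.3 under Python 3.11.15, and plots with matplotlib 3.10.9. Every listed marker gene with a row was named, and genes of other lists by their counts, with values for up to 3 of the most abundant of each list. Gene names outside this rule (P2ry12, Tmem119, Aldh1l1, Slc1a2, Aqp4, Sox9, Gja1, Tubb3, Dcx, Rbfox3, Syt1, Col1a1, Col1a2, Col3a1, Col6a3, Mfap5, Dpt, Cd34, Egfl7, Ocln, Smtn, Cspg4 and Sncg) were chosen after their values were seen. The genes and lists were chosen with earlier results of these data known, so no count over them is independent evidence. Alternatives were pseudocounts of 0.1 and 5, no filter or a mean of at least 10, TMM, equal sums and quantile scaling, log2(FPKM + 0.1), eBayes without trend, leaving out each library, a replicate block, edgeR and DESeq2. The looser CArG box was added after seeing the data. The expression of Tie1, Cldn5 and Emcn was not analysed here, and their promoters were searched with the others.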

Additional observations from a re-analysis of the deposited data

How the results depend on the processing

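Of 552 refitted values of single marker genes, 516 kept their direction and side of the threshold, 4 became significant (Fn1, Eln, Acta2 and Fbln1 by DESeq2) and 32 changed sign. 19 of the 35 genes kept their sign in every alternative that gave them a value, and 6 changed it in one that keeps all libraries. There were 16 alternatives, and 8 genes gave no value at a mean of at least 10. The cause was not tested. With quantile normalization, which moved the median of all genes by 0.14 on the log2 scale, the log2 fold changes were 0.00 for Osr1, 0.07 for Vtn, 0.28 for Tagln, 0.34 for Kdr and 0.03 for Tek, 1 gene was lower at an unadjusted p, and the endothelial median was 0.34. Postn was at -0.18 with log2(FPKM + 0.1), -0.79 in edgeR and -0.78 in DESeq2. Kdr was at 0.38 in edgeR and 0.40 in DESeq2, where the endothelial median was 0.32 and 0.36. Over all genes, log2(FPKM + 0.1) gave 2 lower calls after adjustment, and DESeq2 gave 285 higher and 803 lower, with 3 and 1 of the marker genes. With the looser box, 6 promoters and 2 contractile ones held a match.

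Leaving out 1 library at a time gave 273 to 1820 higher and 862 to 3026 lower genes at an unadjusted p, the fewest without WT replicate 1 and the most without replicate 1 labelled KO. Of the marker genes, 1 to 6 were higher and 1 to 3 lower. The class medians ran from -1.63 to -0.30 for mural receptors, from -0.86 to 1.29 for fibroblast matrix, from 0.30 to 1.43 for contractile genes and from -0.61 to 0.51 for endothelial genes. Single genes that changed sign ran from -1.74 to 2.38 for Postn, -0.83 to 4.61 for Fbln2, -2.02 to 2.45 for Lox, -1.27 to 3.19 for Mgp, -0.80 to 2.26 for Foxd1, -0.51 to 1.30 for Cnn1, -0.02 to 0.84 for Notch4, -0.26 to 0.52 for Foxc1, -1.60 to 1.10 for Vtn, -0.58 to 0.47 for Tagln, -1.39 to 1.29 for Kdr, -0.50 to 1.90 for Thy1, -1.12 to 0.05 for Pdgfrb and -0.05 to 3.14 for Flt1. Where 1 library was left in a group, it was assumed to vary like the other group.

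A replicate block in the fit gave 762 genes higher and 1821 lower at an unadjusted p, with 6 and 3 of the marker genes, and 0 passed adjustment. Deviations of libraries with the same number had a correlation of -0.08 over 22094 genes. A value over all genes cannot tell whether same-numbered libraries share something in a part of them. Depth limits the 9 marker genes with 3 reads or fewer in some library.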
